A study of Mus musculus with 16 samples.

Results

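Adipogenic transcription factors are the 8 regulators PPARG, CEBPA, CEBPB, CEBPD, SREBF1, EBF1, ZFP423 and NR1H3, chosen by name and followed through every feature of the array that carried one of these target names. There were 14 such probes among 45281 on the array, and 8 such genes among 30854 target names. Of the 14 probes 11, covering all 8 genes, were detected on every array of at least 1 group and entered the tests, which ran over 14829 genes. Total RNA was taken from murine embryonic stem (ES) cells that had spent 7 days on a monolayer of PA6 cells in serum-free medium, or from PA6 cells cultured alone in parallel, and was hybridised to 16 MouseWG-6 v2.0 BeadChip arrays. PA6 is a stromal line of mouse bone marrow origin with preadipocyte properties. The co-culture RNA was drawn from ES-derived and PA6 cells together. The 7 co-culture arrays comprised 2 without growth factors (-GFs), 3 given FGF2 and 2 given BMP4. The PA6 arrays numbered 9, 3 of each kind. FGF2 was given at 20 ng/ml and BMP4 at 10 ng/ml according to the labels, whereas a smaller BMP4 dose stands in the study's methods, and the factors were withdrawn after 3 days. The ES cells of all 3 co-culture groups carried a knock-in that drives enhanced green fluorescent protein from the tau promoter, per the study's methods. No genetic change is stated for the PA6 cells. The labels call the arrays biological replicates, each with 1 well per condition, and no further source of independence is stated, so the p-values measure the spread between these arrays.

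Fat cell formation proceeds through a cascade of transcription factors. CEBPB and CEBPD respond early to adipogenic signals and switch on PPARG and CEBPA, which then maintain each other and activate the genes of the mature adipocyte. ZFP423 and EBF1 act earlier, in the commitment of mesenchymal precursors, SREBF1 drives the synthesis of fatty acids, and NR1H3 (liver X receptor alpha) is an oxysterol sensor that itself activates SREBF1. BMP4 is known to commit mesenchymal precursors to the adipocyte lineage.

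The promoters of the pair at the core of the cascade are shown because C/EBP proteins are known to act through the downstream, adipocyte-enriched start of the PPARG gene, and that of ZFP423 because it was the member that differed in the opposite direction between the cultures. Each sequence is the 250 bases before a RefSeq start site in mouse GRCm38.p6, read 5′ to 3′ on the strand of the gene. The PPARG windows lay at chr6:115360894-115361143 and chr6:115421816-115422065 and the CEBPA window at chr7:35119043-35119292, all on the plus strand, and the ZFP423 window at chr8:87959596-87959845 on the minus strand. Capitals mark C/EBP motifs (TTGCNNAA), CCAAT boxes (CCAAT) and a GC palindrome (GGCGCC), each searched on both strands.
PPARG, upstream start: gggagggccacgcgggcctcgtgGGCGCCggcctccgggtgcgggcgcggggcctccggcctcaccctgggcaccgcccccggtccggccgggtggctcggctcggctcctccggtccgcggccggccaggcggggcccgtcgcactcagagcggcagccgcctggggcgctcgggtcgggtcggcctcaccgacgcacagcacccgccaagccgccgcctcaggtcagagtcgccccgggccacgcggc
PPARG, downstream start: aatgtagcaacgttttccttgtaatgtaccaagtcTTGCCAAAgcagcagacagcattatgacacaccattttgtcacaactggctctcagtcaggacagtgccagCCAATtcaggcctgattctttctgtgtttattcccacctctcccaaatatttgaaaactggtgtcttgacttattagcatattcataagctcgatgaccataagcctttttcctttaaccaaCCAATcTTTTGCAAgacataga
CEBPA: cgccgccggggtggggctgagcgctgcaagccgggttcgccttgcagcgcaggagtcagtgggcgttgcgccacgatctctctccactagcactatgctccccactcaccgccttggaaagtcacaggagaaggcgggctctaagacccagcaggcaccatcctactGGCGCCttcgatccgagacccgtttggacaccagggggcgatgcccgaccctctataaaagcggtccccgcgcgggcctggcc
ZFP423, upstream start: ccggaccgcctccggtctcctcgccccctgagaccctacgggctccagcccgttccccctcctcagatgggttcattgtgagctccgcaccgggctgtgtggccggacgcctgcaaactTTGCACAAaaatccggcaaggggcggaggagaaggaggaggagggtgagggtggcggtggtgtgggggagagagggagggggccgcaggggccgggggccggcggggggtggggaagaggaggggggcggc
The upstream PPARG window had a GC content of 82.4% and held 1 GC palindrome 227 bases before the start, while the downstream one had a GC content of 40.8% and held C/EBP motifs 215 and 16 bases and CCAAT boxes 144 and 22 bases before the start. The CEBPA window had a GC content of 66.4% with a GC palindrome 83 bases before the start, and the ZFP423 window had 71.6% with a C/EBP motif 131 bases before the start. Among the 14 windows found for 7 of the 8 genes, C/EBP motifs lay in only these PPARG and ZFP423 windows. Over all 32851 promoter windows of this length the median GC content was 52.4%, and the C/EBP motif was present in 9.56%, the CCAAT box in 33.8% and the GC palindrome in 9.59%. Of the further motifs searched, CACGTG was present in 6.02% of all windows, AGGTCANAGGTCA in 0.0335%, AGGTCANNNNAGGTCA in 0.0152% and TCCCNNGGGA in 0.779%, and none of them matched a member's window. Overlap between motifs was allowed, and a match of letters is a description, not a binding site. The start site that each PPARG probe reports was not analysed here.

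Levels are log2 intensities after background correction and quantile normalisation, and a probe was taken as detected on an array at a detection p-value under 0.05. Between 37.33% and 46.95% of all probes were detected per array. PA6 identity was apparent from 12 stromal markers, such as the collagens COL1A1 and COL3A1, whose summed linear intensity lay between 259000 and 285000 on the PA6 -GFs arrays. Of 9 pluripotency markers, 6 were undetected on all PA6 -GFs arrays (TDGF1, SOX2, ESRRB, UTF1, DPPA4 and FGF4). The 3 probes that were left untested were 1 each for CEBPD and SREBF1, undetected on all 16 arrays, and 1 for PPARG. A gene was called at an adjusted p under 0.1 and a log2 difference over 1 in size. With 2 or 3 arrays a group, the number of arrays limits the precision.

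**Figure D1:**
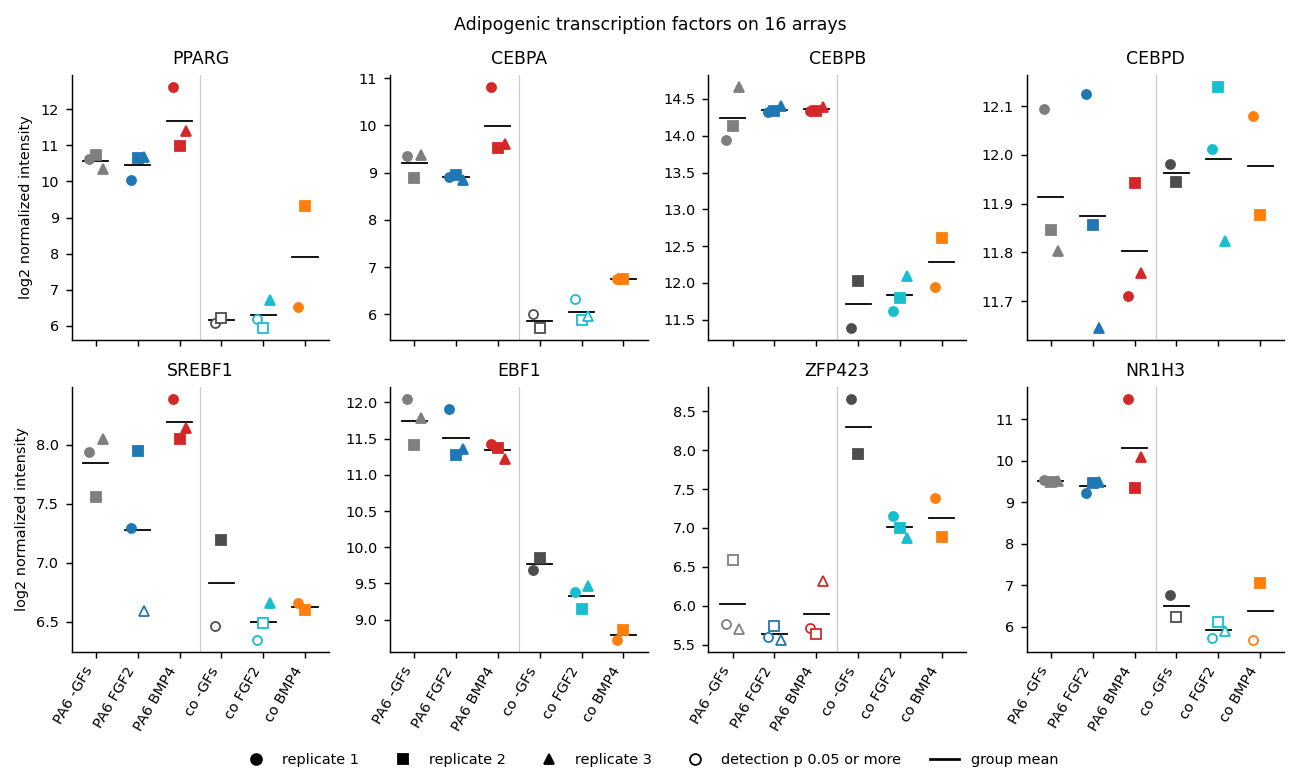
Log2 intensity (vertical axis, own range for each panel) of the 8 adipogenic transcription factors on each of the 16 arrays, by group. Shapes give the replicate number, open symbols a detection p-value of 0.05 or more, and horizontal lines the group means. PPARG, CEBPA, CEBPB, EBF1 and NR1H3 lie higher on all 9 PA6 arrays than on all 7 co-culture arrays, and ZFP423 is detected only in co-culture.

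The first question was how the factors of the stroma compared between PA6 cells alone and ES/PA6 co-cultures without growth factors. Of the 8 genes, 7 differed past the thresholds. PPARG, CEBPA, CEBPB, NR1H3, EBF1 and SREBF1 were lower in co-culture, ZFP423 was higher, and CEBPD was not called. The calls stand beside a large background, since 44.1% of all genes tested were called in this comparison, 21.8% lower and 22.3% higher. In RNA from a whole culture, fewer cells of a type and less RNA per cell cannot be told apart. The 12 stromal markers moved with these genes. All 12 had a lower mean in co-culture, with a median log2 difference of -2.74, and 10 passed the thresholds (all but DCN and LUM). Their summed intensity was 68400 to 72000 in co-culture. The part of the stromal share in the differences of the factors was not tested.

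Among the early factors, CEBPB gave log2 levels of 11.39 and 12.03 on the co-culture -GFs arrays and of 13.94, 14.13 and 14.67 on the PA6 -GFs arrays. All co-culture values lay below all PA6 values, with a difference of -2.53 ± 0.25 (SE; adjusted p = 1.34e-06). CEBPD measured 11.98 and 11.95 in co-culture against 12.10, 11.85 and 11.80 in PA6 cells. Here the groups overlapped, and the difference was 0.05 ± 0.17 with a 95% interval from -0.32 to 0.41 (adjusted p = 0.819). CEBPD was the only member that was not called.

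PPARG, the nuclear receptor required for fat cell formation, was undetected on both co-culture -GFs arrays (6.09 and 6.23) and measured 10.63, 10.73 and 10.36 in PA6 cells. The groups were widely separated, with a log2 difference of -4.42 ± 0.63 (SE; adjusted p = 3.31e-05), that is at least 16.4-fold lower in co-culture. Such a bound sets the bright group against the lowest signal that was still detected on each array of the dim group. A second PPARG probe gave -2.27 ± 0.57 (adjusted p = 0.00349), at least 2.91-fold lower. CEBPA, its partner in the late cascade, was also undetected on both co-culture arrays (6.01 and 5.72) and measured 9.36, 8.89 and 9.37 in PA6 cells. It was at least 6.35-fold lower in co-culture, with a difference of -3.34 ± 0.31 (adjusted p = 7.47e-07).

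NR1H3 measured 6.76 and, undetected, 6.25 in co-culture against 9.54, 9.49 and 9.51 in PA6 cells, a difference of -3.01 ± 0.49 (SE; adjusted p = 0.000106). Its second probe differed in the same direction by -1.27 ± 0.41 (adjusted p = 0.0147). The lipogenic factor SREBF1 showed the smallest of the called differences. Its levels were 6.46, undetected, and 7.19 in co-culture and 7.94, 7.56 and 8.05 in PA6 cells, with a difference of -1.02 ± 0.32 (adjusted p = 0.0129). The SREBF1 call was lost when any 1 of 3 arrays was left out. The difference was -0.66 (adjusted p = 0.173) without co-culture -GFs replicate 1, -0.98 without PA6 -GFs replicate 1 and -0.92 without PA6 -GFs replicate 3.

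The commitment factors parted. EBF1 was detected on all 16 arrays and measured 9.68 and 9.85 in co-culture against 12.05, 11.41 and 11.79 in PA6 cells, a difference of -1.98 ± 0.22 (SE; adjusted p = 2.80e-06). ZFP423, whose protein is known to bind EBF1, was undetected on all 9 PA6 arrays (5.77, 6.59 and 5.71 without growth factors) and measured 8.66 and 7.94 on the co-culture -GFs arrays. It was at least 3.06-fold higher in co-culture (difference 2.28 ± 0.29, adjusted p = 1.44e-05), and a second probe gave 1.63 ± 0.22 (adjusted p = 2.11e-05). ZFP423 was hence the only member called higher in co-culture, alongside all 8 neural markers tested, whose summed intensity was 15200 to 30200 against 573 to 591 in PA6 cells. The part of neural or ES-derived cells in the ZFP423 level was not tested.

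**Figure D2:**
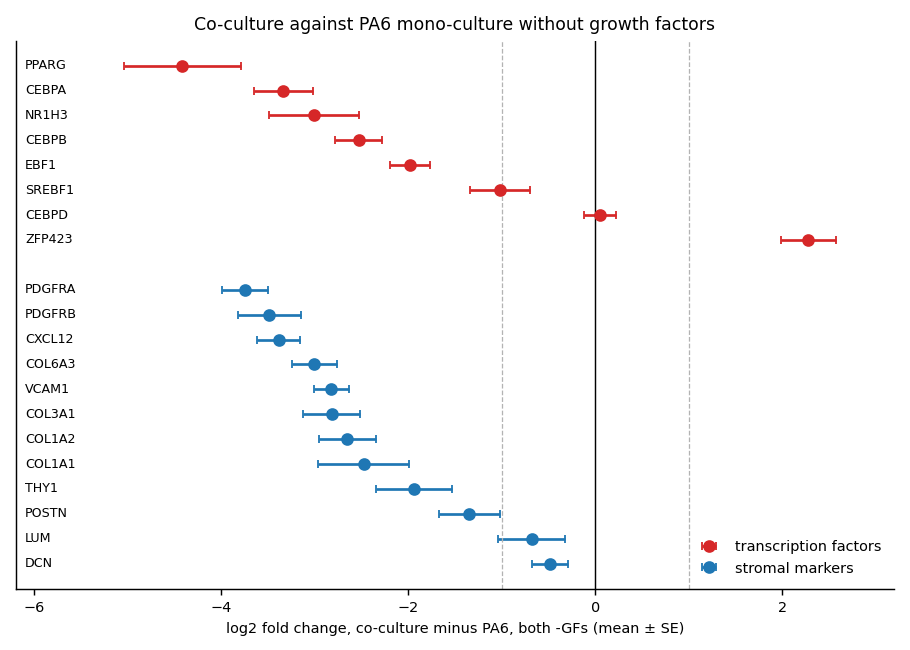
Log2 difference between co-culture and PA6 arrays without growth factors (horizontal axis, bars give the SE) for the 8 factors in red and 12 stromal markers in blue, with dashed lines at -1 and 1. Of the factors 6 lie between -4.42 and -1.02, CEBPD at 0.05 and ZFP423 at 2.28, and all 12 stromal markers lie below 0.

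The same comparison was read in the genes around the factors. Of 22 positive regulators of adipogenesis tested, 8 were higher and 9 lower in co-culture, with a median log2 difference of -0.52 against 0.03 for all genes. The higher ones were KLF5 (3.95 ± 0.36, SE), TCFAP2C (4.46, at least 11.4-fold), EBF2 (2.40), PPARGC1B (1.99), PRDM16 (1.93, at least 1.65-fold), SREBF2 (1.87), EGR2 (1.63, and 0.94 without co-culture -GFs replicate 1) and MLXIPL (1.30, at least 1.17-fold). KLF4 (-3.61 ± 0.52), NFIA (-3.78 ± 0.29), NFIB (-3.75), STAT5A (-2.56), the glucocorticoid receptor NR3C1 (-1.96, at least 2.20-fold), KLF6 (-1.87), KLF15 (-1.32, at least 1.76-fold), ZFP467 (-1.06) and TLE3 (-1.03) were lower. The TLE3 call was lost without co-culture -GFs replicate 1 (-0.84) or PA6 -GFs replicate 3 (-0.68), and with the replicate number as a block (-0.997). The ZFP467 call was lost without co-culture -GFs replicate 1 or PA6 -GFs replicate 2 (-0.95 in both cases).

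Of 19 restraining factors, 0 were higher and 11 lower, with a median of -1.30. The list holds genes that keep precursors undifferentiated, such as DLK1 (-2.45) and GATA2 (-3.88 ± 0.31, SE). TWIST2 gave the largest difference of the list (-5.74 ± 0.46), and the remaining calls were FOXC2 (-3.66, at least 8.68-fold), TCF7L2 (-2.65), KLF2 (-1.85), TWIST1 (-1.82), KLF3 (-1.75), DDIT3 (-1.45), WWTR1 (-1.30) and SOX9 (-1.16, and -0.95 without co-culture -GFs replicate 1). Of 14 partners and cofactors 3 were lower, with a median of -0.76. They were the proteases that release SREBF proteins, MBTPS1 (-1.42) and MBTPS2 (-1.33, at least 2.19-fold), and the coactivator CREBBP (-1.01), whose call was lost without either co-culture -GFs array or without PA6 -GFs replicate 1 or 2 (-1.20 to -0.73).

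The genes that the factors activate did not share 1 direction. Of 14 PPARG and CEBPA targets tested, 4 were lower and 2 higher in co-culture, with a median of -1.39. The lipid droplet gene S3-12 was undetected in co-culture and at least 39.2-fold lower (-6.08 ± 0.62, SE), and PDK4 (-4.40), AGPAT2 (-2.31) and ACSL1 (-2.27) were lower too. The ACSL1 call was lost without co-culture -GFs replicate 1 (-2.04) or PA6 -GFs replicate 1 (-1.82). The glucose transporter SLC2A4 (1.79, at least 1.87-fold) and lipoprotein lipase, LPL (2.42 ± 1.08, adjusted p = 0.0651), were higher, and the LPL call was lost without either co-culture -GFs array (1.98 and 2.86) or without PA6 -GFs replicate 2 (1.88) or 3 (1.81). Of 15 SREBF targets, 11 were higher in co-culture and 0 lower, with a median of 1.54, among them STARD4 (3.06 ± 0.29), FDPS (2.93 ± 0.33), ELOVL6 (2.18), IDI1 (1.77, at least 2.29-fold), CYP51 (1.54), SQLE (1.48), SCD2 (1.35) and ACLY (1.21). FDPS, IDI1, CYP51 and SQLE encode enzymes of cholesterol synthesis, which SREBF2 is known to govern. Of 6 NR1H3 targets 4 were higher, among them APOE (3.99 ± 0.39), APOC1 (1.67) and SMPDL3A (1.52, at least 1.23-fold), and PLTP (-2.47 ± 0.34) was lower.

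The second question was how the factors of PA6 cells alone compared between BMP4 and no growth factor. PPARG and CEBPA were higher on all 3 BMP4 arrays than on all 3 -GFs arrays, but no member passed the thresholds over all genes, and neither did any of the 14829 genes (0% called; 1334 genes, 2 of them members, had an unadjusted limma p under 0.05). PPARG measured 12.63, 10.99 and 11.41 with BMP4 against 10.63, 10.73 and 10.36 without, a log2 difference of 1.10 ± 0.38 (SE; 95% interval 0.24 to 1.96, adjusted p = 0.532). BMP4 replicate 1 stood highest, and without it the PPARG difference was 0.63, while it was 1.44 without BMP4 replicate 2. CEBPA measured 10.82, 9.51 and 9.61 against 9.36, 8.89 and 9.37, a difference of 0.78 ± 0.32 (interval 0.05 to 1.501, adjusted p = 0.540), which was 0.36 without BMP4 replicate 1. The median difference of the 8 members was 0.23 against -0.016 for all genes.

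The lipid regulators were less even. NR1H3 measured 11.49, 9.34 and 10.09 with BMP4 against 9.54, 9.49 and 9.51, with overlapping groups and a difference of 0.79 ± 0.44 (SE; adjusted p = 0.621) that was 0.20 without BMP4 replicate 1. SREBF1 measured 8.39, 8.05 and 8.15 against 7.94, 7.56 and 8.05, a difference of 0.35 ± 0.31 (adjusted p = 0.757). No overlap between BMP4 and -GFs arrays was seen for 3 members, PPARG, CEBPA and, by a narrow margin, SREBF1, against 14.9% of all genes in either direction. EBF1 measured 11.42, 11.37 and 11.22 against 12.05, 11.41 and 11.79, a difference of -0.41 ± 0.21 (adjusted p = 0.596). CEBPB (14.34, 14.34 and 14.39 with BMP4) and CEBPD (11.71, 11.94 and 11.76) differed by 0.11 ± 0.18 and -0.11 ± 0.16, and ZFP423 was undetected in both groups.

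Because each biological replicate held a well of every condition, the PA6 arrays were also compared within replicate number. The BMP4 minus -GFs differences of PPARG were 2.00, 0.26 and 1.05 on the log2 scale in replicates 1, 2 and 3. Those of CEBPA were 1.46, 0.62 and 0.24, so that both genes were above 0 in 3 of 3 replicates. NR1H3 gave 1.95, -0.15 and 0.58 and SREBF1 0.46, 0.49 and 0.10. EBF1 was below 0 in all 3 replicates, at -0.63, -0.04 and -0.57. With the replicate number as a block in the fit the adjusted p was 0.439 for PPARG and 0.434 for CEBPA, and again 0% of genes were called. The second PPARG probe gave 2.70, -0.65 and 0.40. The PPARG probe left out of the tests was detected only on BMP4 arrays 1 and 3 (9.53 and 7.24, with 5.63 on array 2), at least 1.71-fold above the -GFs arrays. All 3 PPARG probes thus placed replicate 1 highest.

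**Figure D3:**
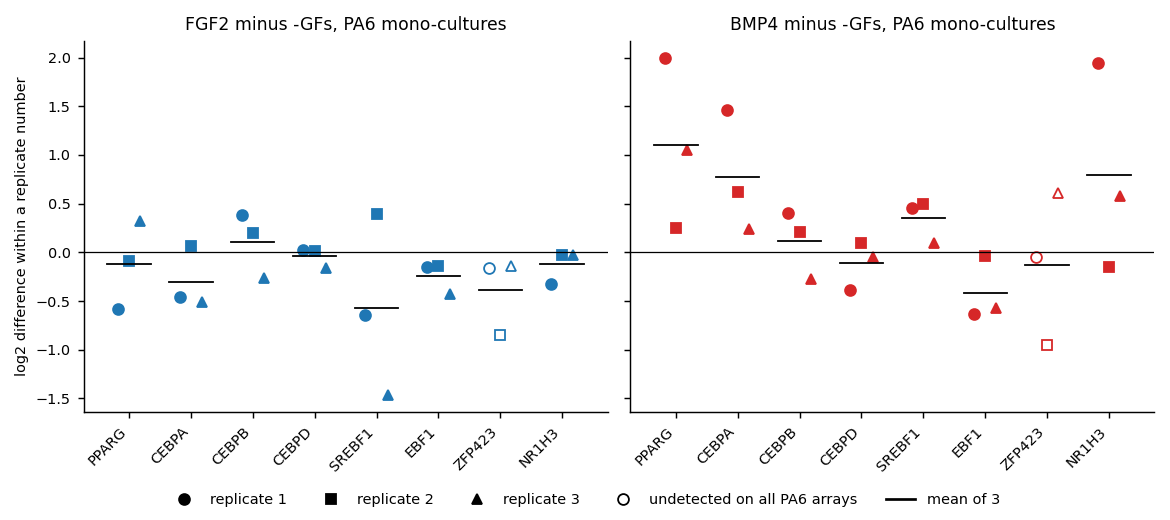
Differences within replicate number on the 9 PA6 arrays, on the log2 scale, for the 8 factors, with FGF2 minus -GFs and BMP4 minus -GFs shown separately and shapes for the replicate number. Open symbols mark ZFP423, which was undetected on all PA6 arrays. PPARG and CEBPA lie above 0 for BMP4 in all 3 replicates, from 0.24 to 2.00, and on both sides of 0 for FGF2.

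With FGF2 in PA6 cells, 0 members passed the thresholds, against 0.0270% of all genes (4 genes), and 0.155% (23 genes) with the replicate block. At an unadjusted limma p under 0.05 there were 0 members as well, beside 1536 of the 14829 genes. PPARG measured 10.05, 10.65 and 10.68 and CEBPA 8.90, 8.95 and 8.85, both overlapping the -GFs arrays, with differences of -0.12 ± 0.38 and -0.30 ± 0.32 (SE; adjusted p = 0.936 and 0.761). Within replicates PPARG gave -0.58, -0.09 and 0.32. SREBF1 measured 7.30, 7.95 and, undetected, 6.59, a difference of -0.57 ± 0.31 (adjusted p = 0.549), with differences of -0.64, 0.39 and -1.47 within replicates. NR1H3 (9.22, 9.46 and 9.48) lay just below all 3 -GFs values and was the only member without overlap, which 16.7% of all genes showed, while its mean differed by -0.12 ± 0.44. The median difference of the 8 members was -0.18. Of the 15 SREBF targets 11 had a higher mean with FGF2, with a median of 0.76 and 7 at an unadjusted limma p under 0.05, as in FDPS (1.82 ± 0.34, adjusted p = 0.149) and STARD4 (1.55 ± 0.29, adjusted p = 0.149). None passed the thresholds (0 of 15), and 1 did with the replicate block (STARD4, adjusted p = 0.0750).

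Between the factors, PPARG differed by 1.22 ± 0.38 (SE; adjusted p = 0.342), CEBPA by 1.08 ± 0.32 (adjusted p = 0.313), SREBF1 by 0.92 ± 0.31 (adjusted p = 0.384) and NR1H3 by 0.92 ± 0.44 (adjusted p = 0.580), BMP4 minus FGF2. Without BMP4 replicate 1 these were 0.74 for PPARG, 0.66 for CEBPA and 0.33 for NR1H3, and NR1H3 was 1.40 without BMP4 replicate 2. SREBF1 was 0.57 without FGF2 replicate 3. PPARG, CEBPA and SREBF1 had no overlap between the groups, against 15.5% of all genes. No member was called, against 0.310% of all genes (46 genes) and 0.486% (72 genes) with the block. An unadjusted limma p under 0.05 was seen for 3 members and 1375 of the 14829 genes. The comparisons with BMP4 share the BMP4 arrays, and those with -GFs share the -GFs arrays.

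The targets of PPARG and CEBPA in PA6 cells showed wider differences than the factors. Of the 14 tested, 13 had a higher mean with BMP4 than without growth factors, with a median difference of 1.53 against -0.016 for all genes. None passed the thresholds (0 of 14), while 8 of them and 1334 of the 14829 genes had an unadjusted limma p under 0.05. CFD, the adipocyte protease adipsin, measured 15.92, 12.58 and 14.51 with BMP4 and 12.94, 8.63 and 8.34 without, a difference of 4.36 ± 1.33 (SE; adjusted p = 0.530). ADIPOQ, which encodes the hormone adiponectin, measured 15.38, 12.02 and 13.87 with BMP4 and 12.69, 8.04 and 8.89 without, and is named after its values were seen. In both genes -GFs replicate 1 lay above BMP4 replicate 2, so the groups overlapped, although each replicate was higher with BMP4. The other targets with the smallest p-values were DGAT2, which completes triglyceride synthesis (3.63 ± 0.98, adjusted p = 0.477), ACSL1 (2.52 ± 0.84, adjusted p = 0.532) and the lipid droplet gene CIDEC (4.32 ± 1.501, adjusted p = 0.532).

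Against FGF2 the median target difference was 1.60 and 0 of 14 were called. With the replicate block 6 of 14 were called in that comparison. They were ADIPOQ (6.09, adjusted p = 0.0175), CIDEC (6.10, adjusted p = 0.0175), CFD (6.75, adjusted p = 0.0293), LPL (3.58, adjusted p = 0.0391), DGAT2 (4.11, adjusted p = 0.0711) and ACSL1 (3.25, adjusted p = 0.0903). The summed linear intensity of the 14 targets was 249913, 30013 and 77527 on the BMP4 arrays, 36451, 14549 and 15957 on the -GFs arrays and 13880, 12138 and 13929 on the FGF2 arrays. BMP4 replicate 1 was thus the highest array for the targets, as for PPARG, CEBPA and NR1H3.

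**Figure D4:**
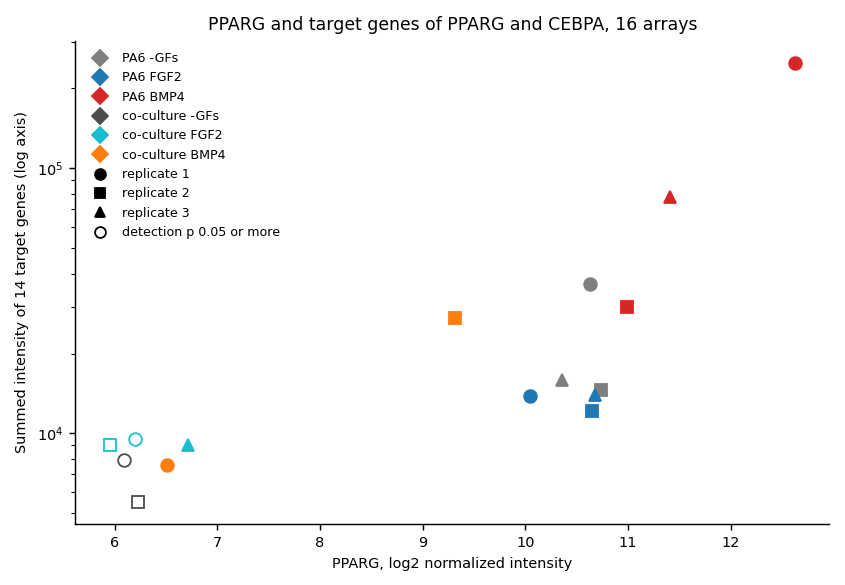
PPARG level (horizontal axis, log2 intensity) against the summed linear intensity of 14 PPARG and CEBPA targets (vertical axis, log scale) on the 16 arrays. PA6 BMP4 replicate 1 lies at the upper right with a sum of 249913, and among the co-cultures BMP4 replicate 2 lies apart with a PPARG level of 9.31 and a sum of 27319.

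In the other lists, PA6 cells with BMP4 gave 0 calls. Of 15 SREBF targets, 13 had a higher mean, with a median of 0.50, as in FDPS (1.20), CYP51 (1.07), STARD4 (0.97) and ELOVL6 (0.50). Among the positive regulators PPARGC1B differed by 1.86, SREBF2 by 0.74 ± 0.16 (SE; adjusted p = 0.477), EBF2 by -0.93 and TLE3 by -0.98. The restraining factors with the smallest p-values were TCF7L2 (-0.48), TWIST1 (-0.45), GATA2 (-0.37) and KLF3 (-0.31). Of the partners these were RXRB (0.41), INSIG1 (0.31), EP300 (-0.18) and MED1 (-0.17), and the NR1H3 targets included LPCAT3 (0.62), APOE (-0.49) and PLTP (-0.36).

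Over the 9 PA6 arrays the genes whose levels were most like PPARG were GCNT2, MGST3, EG433229, CD1D1 and TMEM120A, with Pearson correlations of 0.990, 0.987, 0.983, 0.983 and 0.980. For CEBPA they included BRP44 (0.978), HIPK2 (0.977), SLC25A10 (0.977) and PCX (0.967). PPARG itself gave 0.944 with NR1H3 and 0.901 with CEBPA. The 9 arrays share treatments and replicate wells, and BMP4 replicate 1 weighs on all of these values. Without it the correlations with PPARG were 0.766 for NR1H3, 0.584 for CEBPA and 0.962 for GCNT2, and BRP44 gave 0.901 with CEBPA.

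The third question was how the factors of the co-cultures compared with and without each growth factor. With FGF2, ZFP423 was the only member called, against 7.42% of all genes. It measured 7.16, 7.00 and 6.87 with FGF2 and 8.66 and 7.94 without, with no overlap, and fell by 1.29 ± 0.27 on the log2 scale (SE; adjusted p = 0.0377). The second ZFP423 probe gave a difference of -1.04 ± 0.21 (adjusted p = 0.0409). When the higher of both -GFs arrays, replicate 1, was left out, ZFP423 differed by -0.94 (adjusted p = 0.185). EBF1 measured 9.38, 9.14 and 9.46 against 9.68 and 9.85, a difference of -0.44 ± 0.18 (adjusted p = 0.206). EBF1, ZFP423 and NR1H3 had no overlap between the groups, against 39.7% of all genes.

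The late factors were at the limit of detection in these cultures. PPARG measured 6.72 on FGF2 replicate 3 and was undetected on the others (6.20 and 5.95), and CEBPA was undetected on all 3 FGF2 arrays and both -GFs arrays. SREBF1 (6.35 and 6.49, undetected, and 6.66) differed by -0.33 ± 0.25 (SE), CEBPB (11.62, 11.79 and 12.10) by 0.12 ± 0.29 and CEBPD (12.01, 12.14 and 11.82) by 0.03 ± 0.18. The stromal markers gave 0 calls of 12, with sums of 66900 to 75000. Pluripotency markers moved with FGF2, 8 of 9 higher with sums of 59200 to 73600 against 13400 to 14000, and 2 of 8 neural markers were lower. Of 5 endothelial markers 2 were called higher, with sums of 2020 to 3640 against 371 to 511. The part of these cell types in the ZFP423 difference was not tested.

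Around the factors FGF2 gave 6 calls among 22 positive regulators, all higher. They were KLF4 (3.37 ± 0.47, SE), KLF5 (2.67 ± 0.34), TCFAP2C (2.25 ± 0.21), KLF9 (1.52), MLXIPL (1.42) and STAT5A (1.10). KLF4 and KLF5 are also known from pluripotent cells. Of 19 restraining factors KLF2 (2.22 ± 0.31) and TRIB3 (1.12) were higher. Of 14 PPARG and CEBPA targets, ANGPTL4 (2.26 ± 0.31), PDK4 (1.90) and AGPAT2 (1.13) were higher and SLC2A4 (-1.16) lower, and of 6 NR1H3 targets APOC1 (2.08) was higher. There were 0 calls of 15 among SREBF targets and 0 of 14 among partners. Leaving out co-culture -GFs replicate 1 ended the calls of MLXIPL (1.22), STAT5A (0.74), TRIB3 (1.10), PDK4 (1.31), AGPAT2 (0.90) and APOC1 (1.97), and leaving out -GFs replicate 2 ended those of SLC2A4 (-0.93), STAT5A (1.47), MLXIPL (1.62) and TRIB3 (1.14). Without FGF2 replicate 2 the calls of STAT5A (0.94), MLXIPL (1.35), TRIB3 (1.12), PDK4 (1.81) and AGPAT2 (1.09) were lost, without FGF2 replicate 3 those of STAT5A (1.01), MLXIPL (1.27), TRIB3 (1.07) and PDK4 (1.89), without FGF2 replicate 1 that of TRIB3 (1.17), and without either BMP4 array that of STAT5A (1.10). With the replicate number as a block, by which co-culture arrays did not clearly pair, the calls of MLXIPL (1.27, adjusted p = 0.138), STAT5A (1.01, adjusted p = 0.125) and TRIB3 (1.07, adjusted p = 0.156) were lost.

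With BMP4 in co-culture 0 members were called, against 3.75% of all genes, while 3 members and 2207 of the 14829 genes had an unadjusted limma p under 0.05. PPARG measured 6.51 and 9.31 on the BMP4 arrays, both detected and both above the -GFs arrays, but far apart. The difference was 1.75 ± 0.79 (SE; adjusted p = 0.365). Its bound of at least 2.59-fold rests on replicate 2, since replicate 1 did not clear the lowest detected signal of both -GFs arrays (6.65 and 6.42). The second PPARG probe differed by 0.32 ± 0.41 (adjusted p = 0.823), at 5.46, undetected, and 6.80. The probe left out of the tests was undetected on all co-culture arrays. For the first probe the difference was 0.35 without BMP4 replicate 2 and 3.16 without BMP4 replicate 1. Each of these fits rests on 1 BMP4 array, which is assumed to vary like the arrays of the other groups. CEBPA was even between the arrays (6.76 and 6.75, both detected) and differed by 0.89 ± 0.22 (adjusted p = 0.109), at least 1.16-fold. The PPARG and CEBPA targets summed to 7591 and 27319 on these arrays, the higher on the array with the higher PPARG. That array, replicate 2, also had the highest sum of stromal markers among the co-cultures (89500, against 69716 on BMP4 replicate 1 and at most 74959 elsewhere). The macrophage markers summed to 745 on it, against 297 on replicate 1 and at most 521 on the others. On the arrays of PA6 cells alone they summed to 2110 to 3160, so their sum does not tell macrophages from PA6 cells. The pluripotency markers summed to 23597 on replicate 2 and 42361 on replicate 1. Over both BMP4 arrays 3 of 9 (NANOG, ZFP42 and ESRRB) were called higher than on the -GFs arrays, and 0 with the replicate block. The part of stromal or pluripotent cells in the PPARG and target levels was not tested.

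EBF1 measured 8.72 and 8.86 with BMP4, below both -GFs arrays, and the difference of -0.97 ± 0.20 (SE; adjusted p = 0.0610) fell just short of the fold threshold. ZFP423 measured 7.38 and 6.89, also below both, with a difference of -1.17 ± 0.29 (adjusted p = 0.111). The neural markers were lower too, 3 of 8 called, with sums of 9850 to 9910 against 15200 to 30200. Their part in the ZFP423 and EBF1 differences was not tested. No overlap between the groups was seen for 4 members, PPARG, CEBPA, EBF1 and ZFP423, against 46.1% of all genes. NR1H3 (5.69, undetected, and 7.05), SREBF1 (6.66 and 6.60), CEBPB (11.95 and 12.61) and CEBPD (12.08 and 11.88) overlapped the -GFs arrays, with differences from -0.20 to 0.57.

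Between the growth factors in co-culture 0 members were called, against 1.44% of all genes (2 members and 2104 of the 14829 genes had an unadjusted limma p under 0.05). PPARG differed by 1.62 ± 0.72 (SE; adjusted p = 0.373), BMP4 minus FGF2, and its second probe by 0.42 ± 0.37 (adjusted p = 0.695). The first probe differed by 0.22 without BMP4 replicate 2 and by 3.02 without BMP4 replicate 1, again with 1 BMP4 array in each fit. CEBPA differed by 0.70 ± 0.20 (adjusted p = 0.192) and EBF1 by -0.54 ± 0.18 (adjusted p = 0.247), and these 2 genes had no overlap, against 31.4% of all genes.

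Whether the growth factors acted differently in the cultures was tested as the effect in co-culture minus the effect in PA6 cells. No member was called for FGF2, against 7.90% of all genes, or for BMP4, against 4.23%. An unadjusted limma p under 0.05 was seen for 1 member, ZFP423, in each, beside 3229 of the 14829 genes for FGF2 and 2304 for BMP4. ZFP423 gave -0.91 ± 0.40 for FGF2 (SE; 95% interval -1.76 to -0.06, adjusted p = 0.199) and -1.04 ± 0.42 for BMP4 (interval -1.94 to -0.14, adjusted p = 0.242), with the gene undetected in PA6 cells throughout. The ZFP423 values were -1.19 (adjusted p = 0.0729) and -1.32 (adjusted p = 0.0973) without PA6 -GFs replicate 2, which passed the thresholds. PPARG gave 0.25 ± 0.84 (interval -1.56 to 2.06) and 0.65 ± 0.88 (interval -1.26 to 2.56), intervals that hold differences of over 1 log2 unit in either direction.

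The groups were then put in order of their mean log2 level (± SD). PPARG ran from PA6 with BMP4 (11.67 ± 0.85, n = 3) through PA6 -GFs (10.57 ± 0.20, n = 3) and PA6 with FGF2 (10.46 ± 0.36, n = 3) to co-cultures with BMP4 (7.91 ± 1.98, n = 2), with FGF2 (6.29 ± 0.39, n = 3) and without factors (6.16 ± 0.10, n = 2). CEBPA had the same order, from 9.98 ± 0.73 to 5.87 ± 0.21, and in both genes the arrays of PA6 -GFs and PA6 with FGF2 overlapped, as did the co-cultures with FGF2 and without factors. NR1H3, SREBF1, CEBPB and EBF1 separated by culture, although the SREBF1 arrays of PA6 with FGF2 (7.28 ± 0.68) overlapped those of co-culture without factors (6.83 ± 0.52). Within the co-cultures the EBF1 groups did not overlap, from 9.77 ± 0.12 without factors through 9.33 ± 0.16 with FGF2 to 8.79 ± 0.10 with BMP4. CEBPD overlapped between all neighbouring groups, with means from 11.80 to 11.99. ZFP423 alone had its highest mean in co-culture without factors (8.30 ± 0.51), and its co-cultures with BMP4 (7.13 ± 0.35) and FGF2 (7.01 ± 0.14) overlapped.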

How the data were processed

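Labels gave each array's culture, growth factor and replicate number. The deposited table holds non-normalised average intensities and detection p-values, exported by the authors from GenomeStudio 2011.01. The authors' own analysis used cubic spline-normalised values, which were not used here. Intensities were background-corrected with the detection p-values, quantile-normalised and log2-transformed (neqc, offset 16; limma 3.58.1, R 4.3.3). Quantile normalisation compresses differences between bright probes. A probe was kept if 1 or more groups had detection p-values under 0.05 throughout (20880 probes). The probe of largest mean stood for its gene, giving 14829 genes. Differences were tested with limma on group means, in separate fits for the 9 PA6 and the 7 co-culture arrays and over all 16 arrays for comparisons between cultures, with Benjamini-Hochberg adjustment over all genes. Genes were called at an adjusted p under 0.1 and a log2 difference over 1 in size, as in the study's methods. The scripts were tested on simulated data.

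Members, gene lists and tests were chosen with earlier results of these data known. Named genes were the 8 members with all their probes, the list genes called wherever a member was called, otherwise up to 4 per list with the smallest p in PA6 cells with BMP4 against -GFs, and the 5 genes most correlated with PPARG and with CEBPA. Macrophage markers (3 tested) gave sums of 264 to 362 in co-culture and 2110 to 2630 in PA6 -GFs cells, and endothelial markers (5 tested) 371 to 511 and 216 to 630. The labels place 1 well of each condition in each biological replicate. Deviations from group means correlated at 0.07 to 0.199 between PA6 arrays of the same number (9 pairs) and at -0.136 to -0.012 between others (18 pairs), so PA6 arrays were also compared with the number as a block. In co-culture same-numbered arrays correlated at -0.199 to 0.283 and others at -0.283 to 0.249, so the numbers were not used as pairs. The replicate block is given there only as an alternative. Alternatives were the replicate block, other background correction, scaling, filters, thresholds and fits, and leaving out each array. Promoter windows came from RefSeq GRCm38.p6. A few genes that these rules name are not reported here.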

Additional observations from a re-analysis of the deposited data

Results flagged for a closer look

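No member's effect differed between the cultures past the thresholds, but list genes did, by limma's test of the effect in co-culture minus the effect in PA6 cells over all 16 arrays (adjusted p under 0.1, difference over 1 in size on the log2 scale). Named are only those also called with FGF2 in co-culture or between the cultures without growth factors. Those comparisons use the same co-culture -GFs arrays. For FGF2, 2 partners and 4 SREBF targets passed, not all of them named. The genes named for FGF2 were KLF4 (4.19, adjusted p = 0.00302), KLF5 (2.74), APOC1 (2.42), PDK4 (2.34), KLF2 (2.23), TCFAP2C (2.13), ANGPTL4 (1.89), TLE3 (1.80), KLF9 (1.56, adjusted p = 0.00121), MBTPS2 (1.18) and MLXIPL (1.06), all with a more positive effect in co-culture. EGR2 (-2.24), FDPS (-1.83), STARD4 (-1.48) and SQLE (-1.20) had a more negative one. For BMP4 they were KLF4 (3.28), TCFAP2C (2.31, adjusted p = 0.00310), KLF5 (2.21), TLE3 (1.82), KLF2 (1.80), MLXIPL (1.60), NFIB (1.59) and TWIST1 (1.58, adjusted p = 0.00319), all more positive in co-culture. Both sets of effects share the -GFs arrays. TCFAP2C and MLXIPL were undetected on all PA6 arrays, and KLF5 on all but PA6 -GFs replicate 3, so their effects in PA6 cells lay at the limit of detection.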

How the results depend on the processing

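Over the 72 member differences, 1320 values were recomputed. Of these, 1295 kept their direction and side of the threshold, or changed direction by less than 1 within-group SD without a call. A call was lost in 8 and gained in 9. Another 8 changed direction by at least 1 such SD, with no call in either setting, and 0 reversed a called difference. For 90 named list results the values were 1819, of which 69 lost a call. The count of members called with FGF2 in co-culture was 1, but 0 without background correction and 0 to 1 with arrays left out. With BMP4 against -GFs in co-culture it was 0, but 1 with all 16 arrays in the fit, with a detection p under 0.01, with no minimum fold change (EBF1), with median scaling (PPARG, 1.92, adjusted p = 0.0123) and with a block for the run of columns in the deposited table (CEBPA, 1.08, adjusted p = 0.0731), the last chosen after seeing the data, and 0 to 1 with arrays left out. ZFP423 was the member called there with all arrays (adjusted p = 0.0505) and with the stricter detection (adjusted p = 0.0963). With BMP4 against FGF2 in co-culture the count was 1 with median scaling (PPARG, 1.72, adjusted p = 0.0256) and 0 to 1 with arrays left out. For both differences between cultures it was 0 to 1 with arrays left out. The SREBF1 difference between cultures was -0.89 with median scaling, -0.54 without background correction and -0.995 with the block for the run of columns, which ended its call. The replicate block changed no call of a member. With the replicate block the number of all genes called went from 4 to 23 (FGF2 in PA6), 46 to 72 (BMP4 against FGF2 in PA6), 556 to 258 (BMP4 in co-culture) and 214 to 11 (BMP4 against FGF2 in co-culture, 560 with the column run block). Causes were not tested. Probes near background limit PPARG, CEBPA and NR1H3 in co-culture and ZFP423 in PA6 cells to bounds.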

Other observations

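With BMP4 in co-culture, where no member was called, list genes were. Among positive regulators these were KLF4 (2.12 ± 0.51, SE, adjusted p = 0.0998), TCFAP2C (2.02 ± 0.23, adjusted p = 0.0130), KLF5 (1.86 ± 0.37) and MLXIPL (1.64 ± 0.34), all higher. Of the restraining factors GATA3 (1.58 ± 0.28), FOXC2 (1.40 ± 0.32) and TWIST1 (1.13 ± 0.23) were higher, as were AGPAT2 (1.06 ± 0.25) and APOC1 (1.77 ± 0.40). They are named after their values were seen. The replicate number as a block was only an alternative in co-culture. With it TCFAP2C (adjusted p = 0.0808), FOXC2 (adjusted p = 0.0981) and TWIST1 (adjusted p = 0.0953) were called. The calls of KLF4, KLF5, MLXIPL, GATA3, AGPAT2 and APOC1 were lost (adjusted p = 0.104 to 0.210). The endothelial markers PECAM1 (1.98 ± 0.46) and TEK (2.11 ± 0.30) were higher in the same comparison, and the neural markers ELAVL3 (-1.73 ± 0.29), DCX (-1.54 ± 0.35) and ELAVL4 (-1.30 ± 0.26) lower. Of these neural markers 1 was called with the block (ELAVL3, adjusted p = 0.0877).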
